A study of Caenorhabditis elegans with 24 samples.

Results

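The rows described are the major sperm protein probe sets of a Caenorhabditis elegans gene array. They are the 34 of 29317 rows whose gene symbol entry in the platform table names at least 1 msp gene, alone or among several symbols. The rule reads symbols and no values, but the members were chosen with earlier results of these data known. Total RNA of whole worms was measured on 24 arrays, 1 for each RNA preparation, in 8 groups of 3. The groups are adults of the mutant daf-16(mgDF47) at 25 °C and at 15 °C, wild-type adults at 25 °C and at 15 °C, mutant larvae at 25 °C and at 15 °C, and wild-type larvae at 25 °C and at 15 °C. Adult preparations pooled about 120 worms kept at their temperature for 3 days, starting at late L4, the stage before adulthood. Larval preparations pooled about 300 worms raised at their temperature from embryos to late L4. Since the adults were of equal age in days, temperature and the progress of adult life cannot be told apart. The sex of the worms is not given in the labels, nor whether preparations came from independent cultures, so p-values measure the spread between preparations only.

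Major sperm protein is the main cytoskeletal protein of nematode sperm, whose filaments drive their amoeboid crawling in place of actin. It is also released from sperm and acts as a hormone on the gonad, where it binds the Eph receptor VAB-1 among others and starts oocyte maturation and sheath contraction. Its many near-identical genes are transcribed in spermatocytes. Hermaphrodites make their sperm during the L4 stage, store it in the spermathecae and then switch to oocytes. DAF-16 is the FOXO factor that insulin-like signalling restrains in worms. The groups let the response of these rows to temperature be set between adults and larvae, and between worms with and without daf-16.

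Few of the rows stand for a single gene. Only 4 list 1 symbol, namely msp-3, msp-33, msp-38 and msp-78, and 30 list several, up to 20. In all 30 msp symbols and 4 others (ZK1248.4, F58A6.9, Y59E9AR.1 and Y59E9AR.7) are listed, in 18 distinct combinations, and 11 rows carry the same list of 16 symbols. The short genes msp-74, ZK1248.4 and F58A6.9 each stand in 28 rows. RefSeq names 31 protein-coding msp genes and 4 msp pseudogenes, all on chromosomes II (15 genes) and IV (20 genes), and msp-58 is the 1 coding gene that no row lists. Of the 31 coding genes 28 have a length of 384 bases. By the chromosomes of their symbols, 22 rows span II and IV, 8 hold symbols of II only and 4 hold symbols of IV only. Rows 18545657 and 18559467, which list 20 and 13 symbols, have identical values to 6 decimals in every array and are 1 measurement. Rows are therefore the unit here, and a row with several symbols is called by its first symbol and its probe set number, without implying that this transcript gave the signal. The array signal of a probe set depends on its probes, so no row's brightness is set against another's as an amount of transcript.

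The values are log2 intensities after RMA, which corrects background, normalizes and summarizes probes. Array medians over all rows lay between 3.55 and 3.70 in adults and between 2.96 and 3.08 in larvae, and the stages look to have been normalized separately. Adults were for that reason not tested against larvae. Differences were tested with limma over all 29314 rows with values in every array, and a row was called at an adjusted p (Benjamini-Hochberg over all rows) under 0.05. The daf-16 row was lower in the mutant in all 4 settings, by -2.01 to -2.48 (limma adjusted p at most 2.39e-07), while the position of its probes relative to the deletion is not known. The precision is limited by the 3 arrays per group. In whole-worm RNA, fewer sperm-forming cells and less RNA per cell cannot be told apart.

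The labelled larvae carried the signal of these genes. In the 12 larval arrays 16 to 18 of the 34 rows were in the brightest 10% of all rows, and 25 rows were above the array median in every larval array. The median of the 34 rows stood at percentile 87.3 to 94.1 of the larval arrays. In adult arrays the same median stood at percentile 65.0 to 67.1 in mutants at 25 °C, 45.2 to 62.2 in mutants at 15 °C, 63.7 to 74.2 in wild-type worms at 25 °C and 39.5 to 50.6 in wild-type worms at 15 °C. Of the rows in the brightest 10% of an adult array, warm wild-type preparations 1, 2 and 3 had 0, 7 and 2, and every other adult array had 0.

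**Figure D1:**
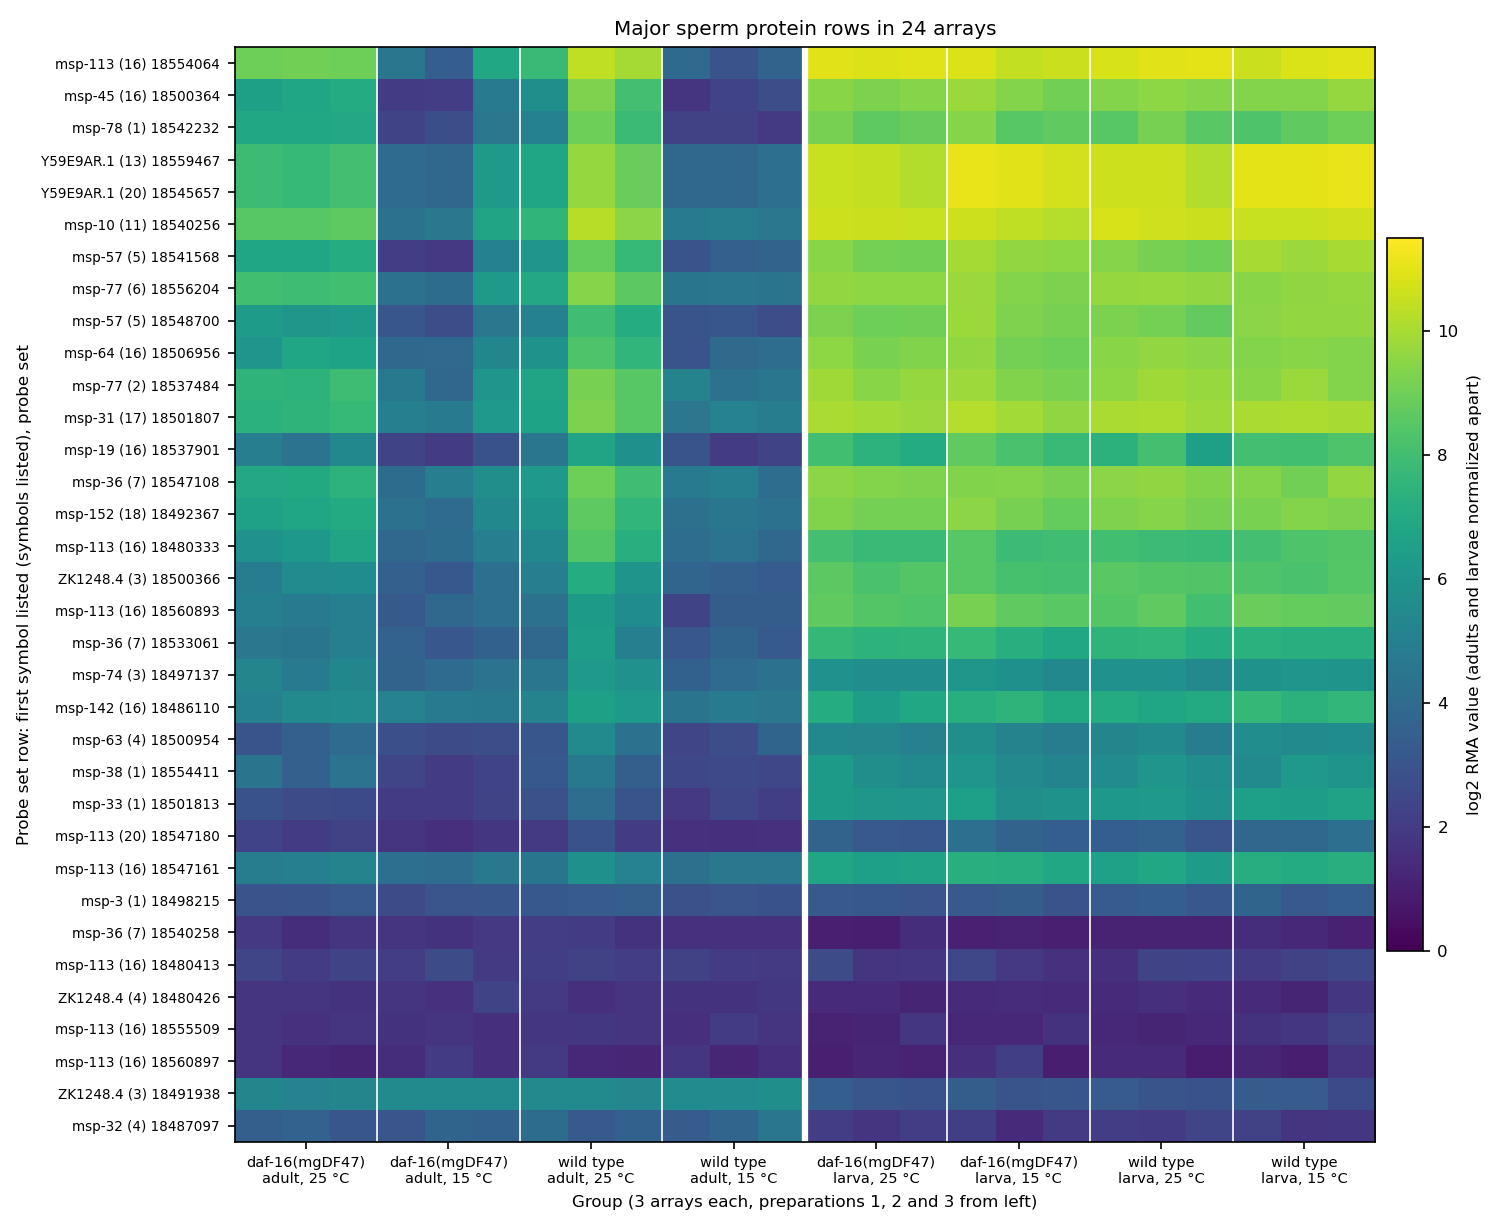
Log2 RMA value (colour scale) of the 34 major sperm protein rows (down the page, by falling temperature difference in wild-type adults) in the 24 arrays (across, 3 per group, adults left of the thick line and larvae right of it). The upper rows are bright in all larval arrays and brighter in adults at 25 °C than at 15 °C, and preparation 3 of the cool mutant adults is brighter than the other 2.

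The heat map of all 34 rows also shows which arrays stand apart. Among wild-type adults at 25 °C, preparation 2 was the highest and preparation 1 the lowest of the 3 in all 26 rows called in that comparison, with gaps of 0.94 to 3.91 log2 units and a median gap of 2.50. The median SD of a member row in that group was 1.15, against 0.17 for all rows. It was 0.47 in mutant adults at 15 °C and 0.16 to 0.32 in the other groups. limma estimated 1 spread per row over all 24 arrays. The SEs and p-values of comparisons with warm wild-type or cool mutant adults can therefore understate the spread within those groups. For comparisons among larvae, whose spread was smaller, the shared spread can instead be too large, so calls there are harder to reach. Among mutant adults at 15 °C, preparation 3 was the highest in 22 of the same 26 rows and exceeded the next one by over 1 log2 unit in 13, at most by 2.97. The main adult counts and medians that rest on these arrays are given with and without them, while most single rows are given only with them. The labels name no batch that these arrays share, and what sets them apart was not tested.

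In wild-type adults most of the family was higher at 25 °C. Of the 34 rows 26 rose and 0 fell (limma), where 14.1% of all rows rose and 13.7% fell. The median difference of the 34 rows was 2.40 log2 units, beside -0.10 for all rows, and 24 rows rose at least 2-fold and 7 at least 16-fold. The 7 include the msp-45 row 18500364 and msp-78, whose cool arrays were dim, so their fold is uncertain. Counts of rows here and below take the identical rows 18545657 and 18559467, which are 1 measurement, as 2 rows. In 26 rows all 3 warm arrays were above all 3 cool ones, as in 17.1% of all rows. By the chromosomes of their symbols, 4 of the 8 rows with symbols of II only, all 4 rows of IV only and 18 of the 22 rows with both were among the rises.

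The row with the greatest difference was the msp-113 row 18554064, which lists 16 symbols. Its log2 values in wild-type adults were 7.78, 10.40 and 9.94 at 25 °C, against 3.93, 2.96 and 3.65 at 15 °C. Every warm array lay far above every cool one. The difference was 5.86 ± 0.59 (SE), 58.1-fold, with limma adjusted p = 2.19e-07. Next came the msp-45 row 18500364, also of 16 symbols, at 5.73, 9.27 and 8.08 at 25 °C, against 1.78, 2.30 and 2.73 at 15 °C. The groups did not overlap although the warm preparations lay far apart, and the difference was 5.43 ± 0.62 (limma adjusted p = 1.22e-06). The cool arrays of this row were dim, at percentile 4.45 to 29.82 of all rows.

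The row of msp-78 alone also rose. It stood at 5.04, 8.95 and 7.82 in warm wild-type adults, against 2.25, 2.27 and 1.94 in cool ones. The cool arrays lay close together and the warm ones had the widest spread of any member row in that group, 7.27 ± 2.01 (SD, n = 3). The difference of msp-78 was 5.12 ± 0.62 (SE; limma adjusted p = 2.25e-06). Its cool arrays were among the dim values, at percentile 7.7 to 17.9 of all rows, so no fold is given. Without warm preparation 1 it was 6.24, and without warm preparation 2 it was 4.28, with limma adjusted p = 6.39e-09 and 1.56e-05. The row pair 18545657 and 18559467, whose lists start with Y59E9AR.1, stood at 6.82, 9.68 and 8.85 at 25 °C, against 3.86, 3.86 and 4.18 at 15 °C. These groups did not overlap either, and the pair rose by 4.49 ± 0.51 (limma adjusted p = 1.05e-06). The msp-10 row 18540256 rose by 4.36 ± 0.50 (limma adjusted p = 1.08e-06).

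The other single-gene rows changed less. The row of msp-38 stood at 3.15, 4.65 and 3.46 in warm wild-type adults, against 2.48, 2.55 and 2.46 in cool ones, a rise of 1.26 ± 0.32 (limma adjusted p = 0.0046). The row of msp-33 stood at 2.87, 4.12 and 2.99 at 25 °C, against 1.90, 2.47 and 2.12 at 15 °C, a rise of 1.16 ± 0.25 (limma adjusted p = 0.00112). In both rows every warm array was above every cool one, and warm preparation 2 was again the highest. The row of msp-3 stood at 3.17, 3.29 and 3.47 at 25 °C, against 2.83, 3.04 and 2.89 at 15 °C. Its groups did not overlap, but its difference of 0.39 ± 0.15 was not called (limma adjusted p = 0.056). With the preparation number as a block, msp-3 was called as well (limma adjusted p = 0.0302) and the count was 27. In this comparison same-numbered preparations deviated together over all rows. Over the 34 rows they did not for every number, with r of -0.01, 0.19 and -0.01.

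**Figure D2:**
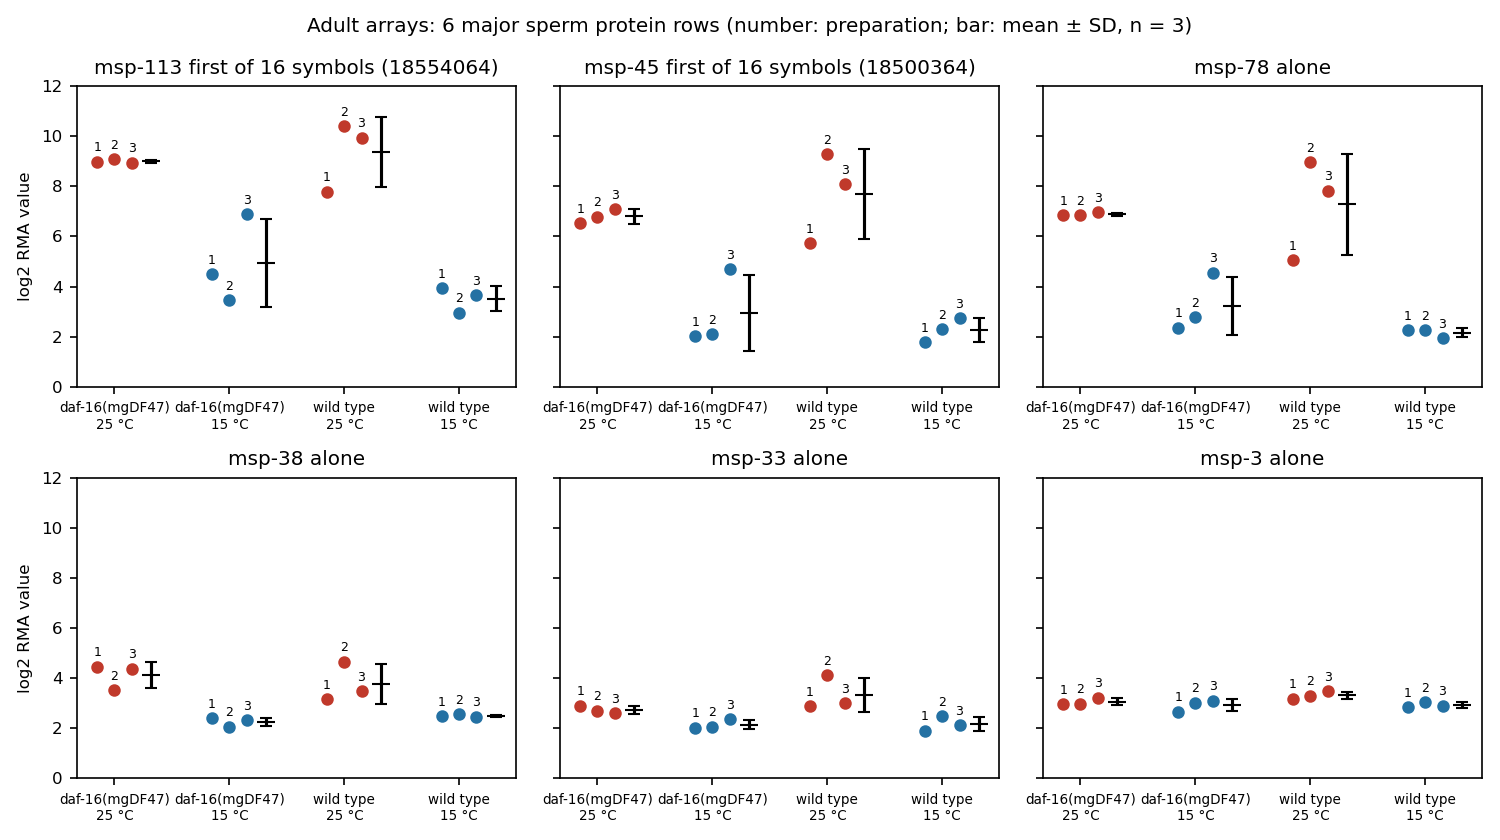
Log2 RMA value (vertical axis) of 6 major sperm protein rows in the 4 adult groups (3 numbered preparations each, red at 25 °C, blue at 15 °C, bars mean ± SD, n = 3). Warm wild-type adults spread from 5.04 to 8.95 for msp-78, the warm mutants from 6.84 to 6.95, and msp-3 differs little between the groups.

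The plot of 6 rows by preparation shows how differently the spread fell in the groups. The count of rises in wild-type adults was 27 without warm preparation 1, with a median difference of 2.94, and 23 without warm preparation 2, with a median of 1.90. Over the 6 runs that each left out 1 of the arrays compared, 23 of the 26 rows were called in every run. The 3 others, the msp-63 row 18500954 (1.33) and the msp-113 rows 18547180 (0.70) and 18547161 (0.66), had the lowest significance among the rises, with limma adjusted p of 0.0171, 0.0233 and 0.031. In rows 18500954 and 18547161 the warm and cool arrays overlapped.

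In adults of the daf-16 mutant most rows were again higher at 25 °C. Of the 34 rows 22 rose at 25 °C and 0 fell (limma), beside 12.1% and 10.4% of all rows. In 25 rows all 3 warm arrays lay above all 3 cool ones, as in 17.8% of all rows. The median difference was 1.77, against -0.10 for all rows, with 21 rows at 2-fold or more and 1 at 16-fold or more. All 22 rows had also risen in the wild type, with which the mutant comparison shares no array. Without cool preparation 3 of the mutant the count was again 22, with a median of 1.93.

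The msp-113 row 18554064 again had the greatest difference. It stood at 8.97, 9.07 and 8.94 in mutants at 25 °C, against 4.50, 3.45 and 6.88 at 15 °C. The warm mutant arrays agreed closely, and the third cool array lay nearest to them without reaching them. The rise was 4.05 ± 0.59 (SE; limma adjusted p = 3.29e-05), and 5.02 without cool preparation 3. The msp-57 row 18541568, which lists 5 symbols, was at 6.77, 6.80 and 7.12 in warm mutants, against 2.08, 1.89 and 5.05 in cool ones. Its groups did not overlap and it rose by 3.89 ± 0.59 (limma adjusted p = 5.29e-05). The msp-45 row 18500364 rose by 3.87 ± 0.62 in mutants, with limma adjusted p = 0.000101.

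Of the single-gene rows, msp-78 was at 6.84, 6.84 and 6.95 in warm mutants, against 2.36, 2.77 and 4.54 in cool ones. The highest cool array was well below the lowest warm one. msp-78 rose by 3.66 ± 0.62 (limma adjusted p = 0.000171). msp-38 was at 4.44, 3.51 and 4.37 in warm mutants, against 2.39, 2.07 and 2.31 in cool ones, a rise of 1.85 ± 0.32 (limma adjusted p = 0.000188). It is 1 of 2 rows among the 22 whose mutant difference exceeded the wild-type one, the other being the msp-113 row 18547161 (0.69). msp-33 was at 2.89, 2.69 and 2.60 in warm mutants, against 2.03, 2.05 and 2.36 in cool ones. These groups do not overlap, but the difference of 0.58 ± 0.25 was not called (limma adjusted p = 0.0994). msp-3 was at 2.96, 2.97 and 3.21, against 2.66, 3.02 and 3.10, which overlap (0.12, limma adjusted p = 0.596).

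Called in the wild type and not in the mutant were 4 rows, msp-33, the msp-142 row 18486110 (1.40 in the wild type, 0.57 in the mutant), the msp-63 row 18500954 (1.33 and 0.75) and the msp-113 row 18547180 (0.70 and 0.46). None of the 4 differed between the genotypes by the test of the difference itself. That test, of the mutant temperature difference minus the wild-type one in adults, called 0 of the 34 rows (limma), beside 0.249% of all rows, with 4 rows at an unadjusted p under 0.05. Its median over the 34 rows was -0.71 and 30 of the 34 values were below 0. The size of this shift rested on single arrays, since the median was -1.26 and -0.22 without warm wild-type preparations 1 and 2, and -0.40 without cool mutant preparation 3. The value of largest size was that of the msp-113 row 18554064, -1.81 ± 0.83 (SE; limma adjusted p = 0.735).

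**Figure D3:**
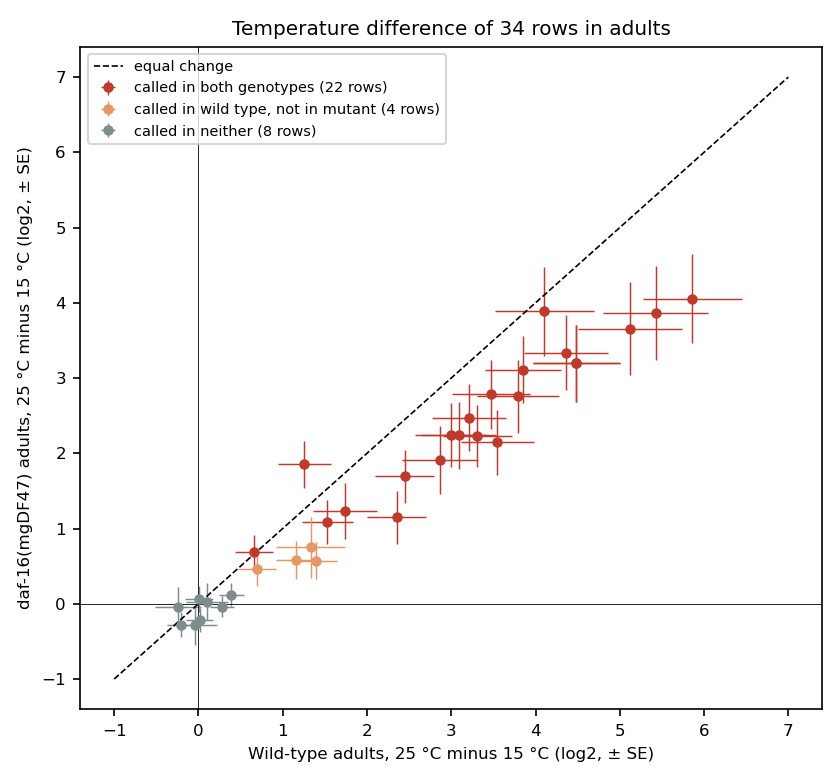
Temperature difference (25 °C minus 15 °C, log2 units ± SE) of the 34 major sperm protein rows in mutant adults (vertical) and wild-type adults (horizontal), with the line of equal change. Of the 22 rows called in both genotypes 20 lie below the line, and the 8 rows called in neither lie near 0 on both axes.

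The scatter of the 2 genotypes has 8 rows near the origin that were called in neither. They are msp-3, the msp-113 rows 18480413, 18555509 and 18560897, the ZK1248.4 rows 18480426 and 18491938, the msp-32 row 18487097 and the msp-36 row 18540258. Their wild-type differences ran between -0.24 and 0.39. Of these 8 rows 6 were above the array median in none of the 12 larval arrays, the exceptions being msp-3 (10 arrays) and 18491938 (7 arrays). All 25 rows above the median in every larval array rose in wild-type adults and 22 of them rose in mutants, and of the other 9 rows 1 and 0 rose. Whether a probe set that is dim in larvae could show a rise was not tested.

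The rows that share 1 symbol list differed as much as the rest. The 11 rows with the same 16 symbols had wild-type adult differences between -0.04 and 5.86, with 8 rises in the wild type and 7 in the mutant. Their mean larval values ran from 1.31 to 10.83. The row 18491938, with the symbols ZK1248.4, msp-74 and F58A6.9, is 1 of the 8 rows that were not called. It stood at 5.28, 5.09 and 5.24 in warm mutants, 5.50, 5.47 and 5.48 in cool mutants, 5.42, 5.47 and 5.31 in warm wild-type adults and 5.56, 5.53 and 5.71 in cool ones. The warm arrays lay below the cool ones in both genotypes, but neither difference was called (-0.28 and -0.20, limma adjusted p = 0.245 and 0.394).

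Most of the rows that rose varied together from array to array, with the arrays that stood apart included. Over the 12 adult arrays, the deviations from the group means of the 26 rows called in the wild type correlated at a median r of 0.814 over 325 pairs of rows, with 319 pairs above 0.5 and a minimum of 0.438. Over the 12 larval arrays the median was 0.699, with 261 pairs above 0.5 and a minimum of -0.191. The same measure was not computed over all rows, nor without the arrays that stood apart. Member rows spread most in warm wild-type adults (median SD 1.15) and cool mutant adults (0.47). The adult r can therefore rest largely on single arrays of those groups. The pairs also include the identical rows 18545657 and 18559467. The 26 rows share symbols and arrays, so the values describe the probe sets and give no count of independent genes.

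In larvae few rows were called between the temperatures, by a spread that adult arrays enter. In wild-type larvae 0 rows rose and 1 fell at 25 °C (limma), beside 2.04% and 1.73% of all rows, with a median difference of -0.13. The 1 called row was the msp-113 row 18555509, at 1.27, 1.19 and 1.27 in warm larvae, against 1.66, 1.81 and 2.29 in cool ones, a difference of -0.68 ± 0.17 (SE; limma adjusted p = 0.0255). It was below the array median in every larval array, and it was not called in 4 of the 6 runs that each left out 1 of the arrays compared (limma adjusted p between 0.0505 and 0.137), nor with only larval arrays in the fit (0.117). In 13 rows all warm wild-type larval arrays lay below all cool ones (38.2%, beside 10.2% of all rows), and 22 of the 34 differences were below 0. In mutant larvae limma called 0 rows, beside 2.6% of all rows higher and 1.64% lower, with 1 row at an unadjusted p under 0.05. The median in mutant larvae was -0.01, and 4 rows lay wholly lower in warm arrays (11.8%, near the 10.4% of all rows).

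Among the rows with the greatest adult differences, some changed little between warm and cool larvae and others lay lower in warm wild-type larvae. The msp-113 row 18554064 was at 10.98, 10.91 and 10.94 in warm mutant larvae, 10.90, 10.43 and 10.58 in cool mutant larvae, 10.82, 11.0015 and 11.04 in warm wild-type larvae and 10.59, 10.84 and 10.94 in cool ones. msp-78 was at 9.12, 8.64 and 8.82 in warm mutant larvae, 9.41, 8.50 and 8.67 in cool mutant larvae, 8.52, 9.13 and 8.54 in warm wild-type larvae and 8.32, 8.71 and 8.95 in cool ones. In both rows warm and cool larvae of the wild type overlapped, and in mutants the groups of row 18554064 did not, its difference of 0.31 not being called (limma adjusted p = 0.889). The msp-57 row 18541568 was lower in warm larvae, at 9.42, 9.12 and 8.97 in the wild type at 25 °C, against 9.98, 9.77 and 10.01 at 15 °C, a difference of -0.75 ± 0.59 that limma did not call (adjusted p = 0.595). With only the larval arrays in the fit it was called (limma adjusted p = 0.034). The row pair headed by Y59E9AR.1 likewise lay wholly lower in warm wild-type larvae, at 10.61, 10.62 and 10.19, against 11.01, 11.04 and 11.11 in cool ones, and was not called.

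The difference between the stages in the response was tested as the adult temperature difference minus the larval one, within each genotype. In the wild type 24 rows were above 0 and 0 below (limma), beside 7.75% and 4.43% of all rows. In the mutant 18 were above and 0 below, beside 6.03% and 3.08%. These contrasts use the adult arrays already described. The difference was 5.70 ± 0.83 (SE; limma adjusted p = 8.49e-05) for the msp-113 row 18554064 and 5.06 ± 0.88 for msp-78 (limma adjusted p = 0.000469) in the wild type, and 3.75 ± 0.83 (adjusted p = 0.00551) and 3.65 ± 0.88 (limma adjusted p = 0.00961) in the mutant. msp-33 was called in the wild type (1.64, limma adjusted p = 0.00309) and msp-3 was not (0.54, adjusted p = 0.1). msp-38 was called in both, at 1.38 (limma adjusted p = 0.0472) and 1.59 (adjusted p = 0.0277), but not in the wild type with the preparation number as a block (0.0704). The mutant count depended on single arrays and was 11 without cool mutant adult preparation 2 or cool mutant larval preparation 1, and 12 without cool mutant adult preparation 1 or warm mutant adult preparation 3.

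**Figure D4:**
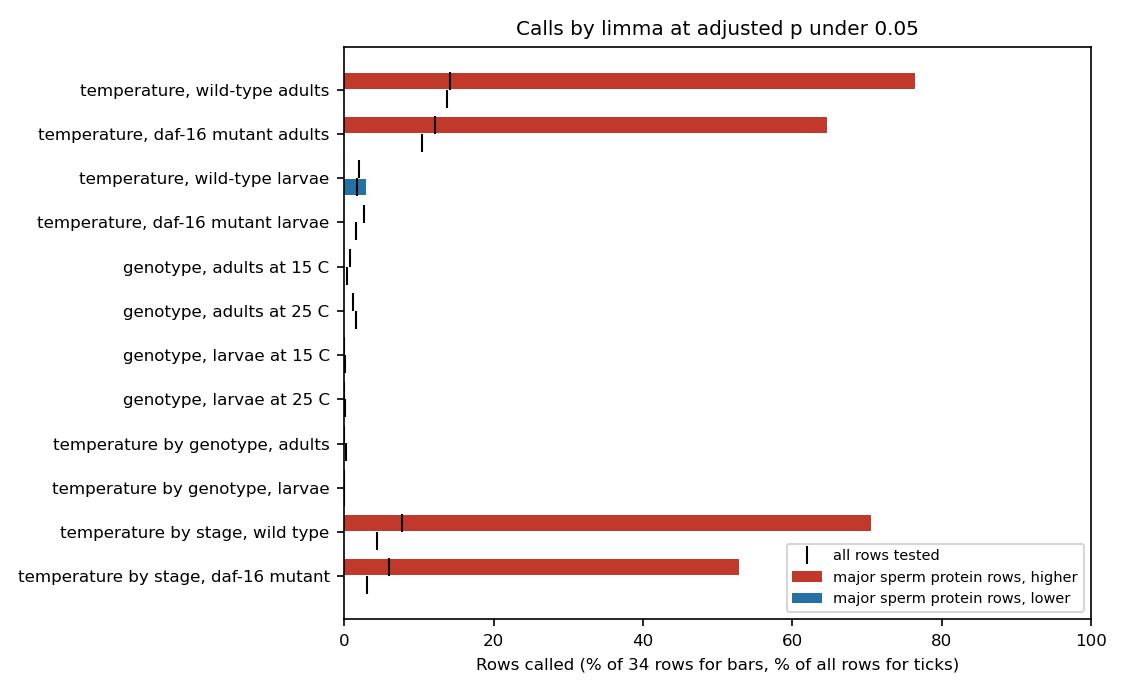
Share of rows called by limma (horizontal axis, percent) in the 12 comparisons (down the page), with bars for the 34 major sperm protein rows (red higher, blue lower) and black ticks for all 29314 rows. The bars reach 76.5% and 64.7% for temperature in adults and 70.6% and 52.9% for temperature by stage, and are absent or at 2.94% elsewhere.

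Between the genotypes no row was called at either stage or temperature, as the chart of called shares shows. For mutant minus wild type limma called 0 of the 34 rows in adults at 25 °C, adults at 15 °C, larvae at 25 °C and larvae at 15 °C, beside 2.83%, 1.19%, 0.126% and 0.058% of all rows in either direction. At an unadjusted p under 0.05 there were 2, 1, 0 and 1 rows. In adults at 25 °C the median difference was -0.49 and 32 of 34 values were below 0, and in adults at 15 °C the median was 0.17. The warm value depended on single warm wild-type arrays. Without preparation 2, the highest of its group, the median was -0.06, with 0 rows called by limma, and without preparation 1, the lowest, it was -1.11, with 10 rows lower in the mutant. Without cool mutant preparation 3 the median at 15 °C was -0.10, with 0 rows called. In larvae the medians were -0.03 at 25 °C and -0.14 at 15 °C, and the temperature difference did not differ between the genotypes in any of the 34 rows by limma (0% of all rows called, 1 member row at an unadjusted p under 0.05).

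Among other genes of sperm the share of rises was near that of all rows. Of 42 sperm genes outside the family with a row of their own, 6 rose (14.3%, beside 14.1% of all rows) and 1 fell (2.38%, beside 13.7%) in warm wild-type adults (limma), with a median of 0.15. In warm mutant adults 5 rose (11.9%, beside 12.1% of all rows) and 2 fell (4.76%, beside 10.4%), with a median of -0.04. Many of these 42 rows were dim, with 11 to 14 above the array median in adult arrays and 28 to 32 in larval ones. Whether the dim ones could show a rise was not tested. The largest rises were of nspd-7, nspd-1 and nspd-10, members of a nematode-specific peptide family enriched in sperm. nspd-7 was at 7.04, 8.91 and 7.99 in warm wild-type adults, against 3.70, 5.27 and 4.69 in cool ones, a rise of 3.43 ± 0.37 (limma adjusted p = 5.8e-07). The warm arrays lay above the cool ones, with preparation 2 the highest as in the msp rows. nspd-1 rose by 3.26 and nspd-10 by 2.88 in the wild type, and the 3 rose by 2.58, 2.39 and 1.83 in the mutant. nspd genes also have near-identical copies. Further rises in the wild type were those of ssp-37 (0.996), which carries a domain related to major sperm protein, the unconventional myosin gene spe-15 (0.85) and the sperm chromatin gene spch-1 (0.57), and spe-39, of vesicle traffic, fell (-0.30). In the mutant ssp-37 (0.90) and the kinase gene spe-6 (0.49) rose, and spe-41 (-0.9998), a calcium channel gene of sperm, and spe-39 (-0.27) fell. The sperm phosphatase gene gsp-3 was at 3.57, 6.04 and 4.37 in warm wild-type adults, against 3.45, 4.37 and 3.56 in cool ones, which overlap, and its difference of 0.87 ± 0.40 was not called (limma adjusted p = 0.111).

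Regulators of the sperm fate went both ways. Of 19 such genes 2 rose (10.5%, beside 14.1% of all rows) and 10 fell (52.6%, beside 13.7%) in warm wild-type adults. In mutants 2 rose (10.5%, beside 12.1% of all rows) and 4 fell (21.1%, beside 10.4%). fog-3 and fog-1, which direct germ cells to become sperm, rose by 2.07 ± 0.16 and 1.41 ± 0.13 in the wild type (limma adjusted p = 1.01e-08 and 6.81e-08) and by 1.35 and 1.08 in the mutant. fog-3 stood at 8.74, 8.54 and 8.54 in warm wild-type adults, against 6.45, 6.68 and 6.48 in cool ones. Its warm arrays lay close together, and preparation 2 was not the highest as it was in the msp rows. The falls were led by mog-1 (-0.77), a helicase gene needed for the switch to oocytes, fog-2 (-0.69), which allows sperm in hermaphrodites, spe-44 (-0.66), a regulator of sperm gene transcription, and fem-1 (-0.65). In the mutant mog-1 (-0.68) and fem-1 (-0.45) fell. In larvae limma called 0 of these 19 in the wild type and 1 in the mutant, gld-1, which fell by 0.67.

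On the receiving side, the genes of oocyte maturation changed by less than 1 log2 unit. Of 17 genes for receptors, sheath signalling and maturation, 5 rose (29.4%, beside 14.1% of all rows) and 4 fell (23.5%, beside 13.7%) in warm wild-type adults. In mutants 3 rose (17.6%, beside 12.1% of all rows) and 0 fell (beside 10.4%). The rises were led by kin-1 (0.90 ± 0.14), the catalytic subunit of protein kinase A, gsa-1 (0.71), the G protein that activates its pathway, and ceh-18 (0.63), a homeobox gene of sheath cells. sacy-1 (-0.57), a helicase gene that restrains oocyte maturation, had the largest fall. The receptor gene vab-1 was at 10.29, 10.33 and 10.24 in warm wild-type adults, against 10.21, 10.32 and 10.23 in cool ones, which overlap. Of 20 oocyte and eggshell genes 1 rose (5%) and 2 fell (10%) in warm wild-type adults, both below the shares of all rows, and limma called 0 in mutants. In warm larvae 5 of the 20 fell in each genotype (25%, beside 1.73% of all rows in the wild type and 1.64% in the mutant).

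Markers of other stages and tissues differed in how often they were called in warm adults, where 14.1% of all rows rose and 13.7% fell in the wild type, and 12.1% and 10.4% in mutants. Of 24 moulting genes, active in larvae between cuticles, 16 rose (66.7%) and 0 fell in each genotype. The rises in the wild type were led by sqt-3 (3.37), lpr-3 (3.04), wrt-10 (2.94) and noah-1 (2.90). Some members that were bright in larvae overlapped between the temperatures in adults. bli-1 was at 2.81, 2.36 and 2.51 in warm wild-type adults, against 2.81, 2.74 and 3.04 in cool ones. dpy-13 was at 3.83, 4.22 and 3.65, against 3.87, 4.21 and 4.41. In warm wild-type larvae bli-1 was at 8.97 to 9.74 and dpy-13 at 10.17 to 10.41. fbn-1 was at 5.65 to 5.83 in warm wild-type adults, 3.58 to 3.98 in cool ones and 2.497 to 3.179 in warm wild-type larvae. The summed level of the 24 moulting genes on the linear scale was 4182.5 to 6311.9 in warm mutants and 1192.6 to 1439.5 in cool mutants. It was 4449.7 to 4878.6 in warm wild-type adults and 865.9 to 1247.1 in cool ones. Of 20 embryo genes 9 rose (45%) and 0 fell in the wild type, led by tbx-43 (3.67) and sdz-28 (2.01), and 8 rose (40%) and 1 fell (5%) in mutants. Their summed level was 2078.1 to 2365.3 in warm mutants, 1628.0 to 1781.2 in cool mutants, 1969.2 to 2411.5 in warm wild-type adults and 1225.9 to 1444.4 in cool ones. Of 14 male genes 2 rose and 2 fell in the wild type (14.3% each, near the shares of all rows), mab-3 (0.70) and try-5 (0.57) against srj-54 (-0.44) and lov-1 (-0.32), and 2 rose (14.3%) and 0 fell in mutants. The male list summed to 130.9 to 145.3 in warm mutants, 122.4 to 126.5 in cool mutants, 136.4 to 149.2 in warm wild-type adults and 120.5 to 125.9 in cool ones. Of 7 genes of muscle, intestine, skin and neurons 4 rose in the wild type (57.1%), led by myo-3 (1.68), and 3 in mutants (42.9%). The yolk gene vit-1 fell in both genotypes (-0.78 and -0.71), the only called one of 5 vitellogenins in either. The part of these differences in that of the msp rows was not tested.

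**Figure D5:**
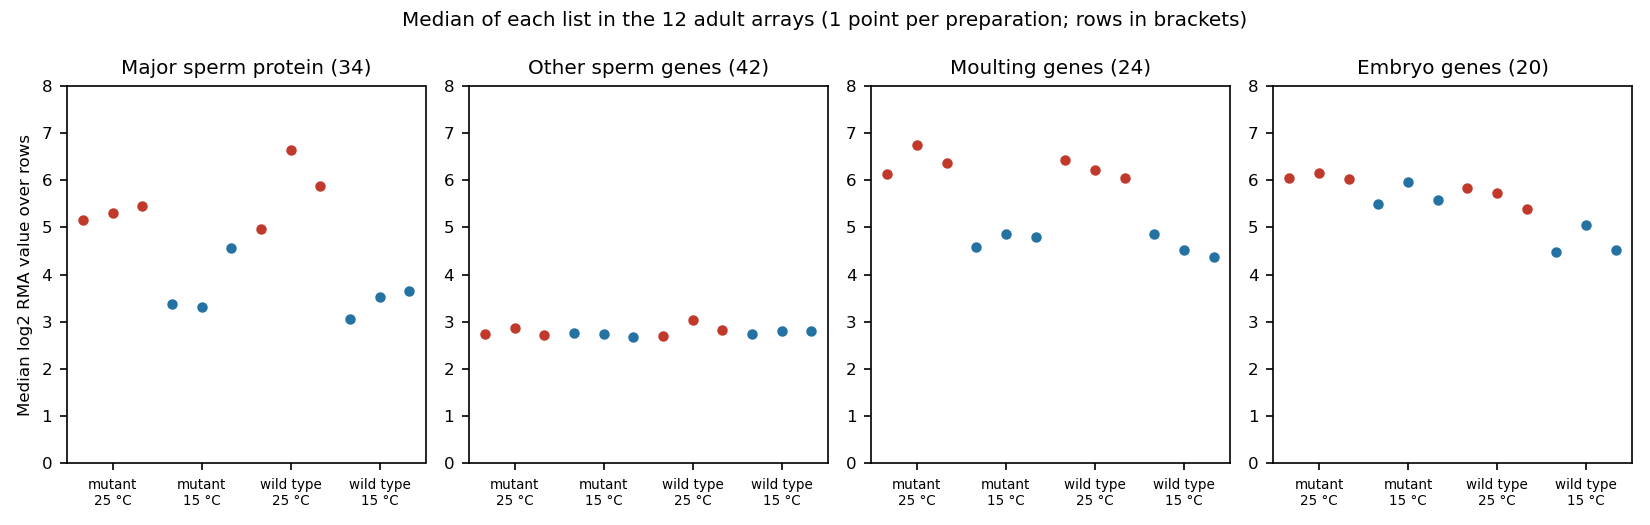
Median log2 RMA value over the rows of 4 lists (vertical axis, number of rows in brackets) in the 12 adult arrays (1 point per preparation, red at 25 °C, blue at 15 °C). The medians of the msp rows spread from 4.97 to 6.64 in warm wild-type adults, those of the moulting genes from 6.05 to 6.44, and those of other sperm genes from 2.69 to 3.03.

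The plot of list medians sets the arrays beside each other. The medians of the 34 msp rows were 5.16, 5.31 and 5.46 in warm mutants, 3.38, 3.31 and 4.57 in cool mutants, 4.97, 6.64 and 5.89 in warm wild-type adults and 3.07, 3.54 and 3.64 in cool ones. The high second preparation of warm wild-type adults also had the highest median for other sperm genes. For moulting genes it was second by the median (6.44, 6.21 and 6.05 in preparations 1 to 3) but highest by the summed level (4612.6, 4878.6 and 4449.7), and for embryo genes it was second by both.

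Outside the family, the rows that followed the median of the 34 rows most closely over the 12 adult arrays were nspd-10 (r = 0.982), T27A3.5 (r = 0.979), Y59H11AM.1 (r = 0.978), nspd-7 (r = 0.974) and nspd-1 (r = 0.973). Over the 12 larval arrays they were Y105C5B.18 (r = 0.961), the profilin gene pfn-1 (r = 0.924), T28H11.7 (r = 0.921), ccf-1 (r = 0.906), a subunit of a deadenylase complex, and abcf-2 (r = 0.900). The 2 sets have no row in common. The arrays of the 4 groups of a stage enter together, so group differences are part of these values, which are given as a description.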

How the data were processed

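The authors deposited log2 values made with RMA, per the submitters' processing notes; the version and settings are not given in the sources used here. Symbols came from the platform annotation, and all 339 symbol entries of the 34 rows matched the RefSeq table. Of 29317 rows, 3 blank ones in adults were left out. Group means of 8 groups were fitted over 24 arrays with limma 3.58.1 in R 4.3.3 (lmFit, contrasts.fit, eBayes; 16 residual and 4.99 prior degrees of freedom), with two-sided p-values adjusted by Benjamini-Hochberg over 29314 rows in each of 12 comparisons. Differences are daf-16 minus wild type, 25 °C minus 15 °C or adult minus larval response. The fit was tested on simulated data.

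Named are the rows of 1 symbol, up to 5 called rows by size in each comparison, up to 4 called genes per list, and rows at the extremes of mean, spread or likeness. Other rows named, such as those called in 1 genotype or in neither, were chosen after their values were seen. The members, lists and tests were chosen with earlier results of these data known. Gene lists hold genes with a row of their own (42 of 59 sperm genes, 17 of 19 maturation genes and 5 of 6 vitellogenins). Summed levels add the linear values of a list.

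Same-numbered preparations deviated together over all rows (r above 0.1 for every number) for temperature in wild-type adults (0.289, 0.290 and 0.330) and genotype in larvae at 25 °C (0.157, 0.150 and 0.426) but did not do so for every number in the 6 remaining comparisons between 2 groups. Alternatives were centring on array medians, cyclic loess, arrays of 1 stage, array weights, trended and robust eBayes, no dim rows, the replicate block and each array left out.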

Additional observations from a re-analysis of the deposited data

Results flagged for a closer look

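Effects of temperature that differ between adults and larvae by the test of the difference itself were found in 24 rows of the wild type and 18 of the mutant, each as the adult 25 °C minus 15 °C difference less the larval one (limma). In the wild type the largest were the msp-113 row 18554064 (5.70, adult difference 5.86, larval difference 0.16), the msp-45 row 18500364 (5.47), the rows 18545657 and 18559467, headed by Y59E9AR.1 and identical in value (5.07 each), and msp-78 (5.06). In the mutant they were the msp-57 row 18541568 (4.42), the msp-45 row 18500364 (3.91), the msp-113 row 18554064 (3.75) and the same pair 18545657 and 18559467 (3.74 each). For these rows the limma adjusted p ran between 6.7e-05 and 0.000469 in the wild type and between 0.00139 and 0.00619 in the mutant. The wild-type and the mutant differences share no array, but their p-values use the same spread per row over all 24 arrays.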

How the results depend on the processing

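No called row changed direction under any alternative. The counts for temperature in wild-type adults (26) and mutant adults (22) stayed within 1.5 times under every alternative, and were 23 to 27 and 19 to 23 with each array left out. The count for wild-type larvae (1) was 0 after cyclic loess, and 0 to 1 with each array left out. Without the dimmest 20% of rows it was 0, but that filter takes out the called row itself and so does not test it. The count for genotype in adults at 25 °C (0) was 2 with array weights, and 0 to 10 with each array left out. The count for temperature by stage (24 in the wild type, 18 in the mutant) was 23 to 26 and 11 to 22 with each array left out. With the replicate block the counts were 27 and 22 for temperature in adults and 25 and 20 for temperature by stage, and the block changed none of the other 8 counts. Of single rows, 92 results lost a call under an alternative, 45 gained one and 5853 stayed on their side. Centring on array medians moved the share of rises among all called rows to 39% from 50.8% in wild-type adults, to 43.1% from 54.2% in wild-type larvae, to 53.4% from 42.2% for genotype in adults at 25 °C and to 19% from 29.4% in larvae at 15 °C, with member medians of 2.33, -0.18, -0.44 and -0.16. The causes were not tested. Rows at the dim end, which include 6 never above the larval array median, limit what can be read there.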
